A study of Arabidopsis thaliana with 12 samples.

Results

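Rosette transcripts of Arabidopsis thaliana plants carrying ceh1 and eds16 together were compared with those of plants carrying ceh1 alone. The 3 ceh1/eds16 libraries and the 3 ceh1 libraries are 6 of the 12 libraries of the study, and the comparison covered the 18289 genes, of 33602 in the deposited table, whose mean normalized count over the 12 libraries was at least 10. The other 6 libraries are 3 of wild type Col-0, named the parent in the titles, and 3 of eds16. All plants were rosettes 3 weeks of age grown in soil under long days, and polyadenylated RNA was sequenced. In ceh1 the gene HDS is mutated, so both groups of the main comparison have this lesion and differ in the eds16 allele. The eds16 plants have lost ICS1. The libraries are biological replicates per the design text, and neither the number of plants per library nor the hour of harvest is given in the sources used here.

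HDS is the plastid enzyme of the methylerythritol phosphate (MEP) pathway that uses methylerythritol cyclodiphosphate (MEcPP), and plants with a weak HDS accumulate MEcPP, which acts as a stress signal from the plastid to the nucleus. ICS1 is the plastid isochorismate synthase that supplies most of the salicylic acid made under stress. Salicylic acid acts through NPR1 and TGA factors on defence genes such as PR1, and it is known to hold back jasmonate and ethylene responses such as the defensin PDF1.2. The question posed by the series title is which changes under MEcPP accumulation need salicylic acid. Removal of ICS1 in the ceh1 background bears on it through transcripts. No level of salicylic acid or of MEcPP is among the values used here.

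Values are normalized counts, which are reads per gene divided by 1 factor per library, and each group has n = 3. Differences are on the scale of log2(normalized count + 1), on which the change of genes with few reads is understated, and are given as ceh1/eds16 minus ceh1 with a standard error (SE). Folds are taken from the same scale. Tests are from limma with all 12 libraries in 1 fit, and a gene is said to have risen or fallen when its Benjamini-Hochberg adjusted p-value, computed across all 18289 tested genes, was under 0.05.

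Reads assigned to genes numbered 4.99 M to 18.08 M per library, with 7.4 M to 18.08 M in ceh1 and 7.15 M to 8.7 M in ceh1/eds16. Replicate 3 of ceh1/eds16 stood apart from the other replicates of its group. Its root mean square log2 difference from them was 0.449 and 0.49, against 0.178 to 0.311 for every other pair within a group. On the second component of the 6 libraries, which held 31.4% of the variance, it scored 46.3 and the other ceh1/eds16 replicates -14.8 and -24.5. The first component, with 48.5%, separated the genotypes. The deviation followed gene length: relative to its group the library was 0.5 higher in median log2 for the genes in the shortest of 5 transcript length classes and 0.4 lower for those in the longest. Without this library the genotypes differed by length as well, with a median log2 difference of -0.27 for the shortest class and 0.22 for the longest, against -0.12 and 0.10 with all libraries. With the length trend removed from each library, all 123 genes that passed and were named by a fixed rule still passed in the same direction. Of all 1860 genes that passed, 98.17% were also called. The cause of the length trend was not tested. Values without this library are given for some genes and lists. Values with the length trend removed are given only for counts of genes and for ADR1-L1 and GL2.

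Loss of ICS1 in ceh1 plants changed 1860 genes, which is 10.2% of those tested. Of these, 1084 were higher (5.93%) and 776 lower (4.24%) in ceh1/eds16. Counts of list members below are to be read beside these shares. At least 2-fold changes were found for 235 higher genes (1.28%) and 230 lower genes (1.26%). The ceh1/eds16 and ceh1 libraries did not overlap for 27.0% of genes, and 23.3% had an unadjusted p under 0.05. The median log2 difference over all 18289 genes was -0.01. Without replicate 3 of ceh1/eds16 the number rose to 3247 genes (17.8%). Without replicate 1 or replicate 2 of ceh1 it was 1024 or 1121. Scaling the libraries to equal totals took the median of all genes from -0.01 to -0.10 and turned the split of the calls to 739 higher and 1185 lower, so the balance of directions depends on the scaling. Genes named below that were not picked by the naming rule, among them ORA59, THI2.1, PR4, CCA1, LHY, RVE8, RVE1, TOC1, LUX, WRKY70, SZF1, GAPB and VSP2, were chosen after their values were seen.

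Of the 137 genes named by a fixed rule, 28 overlap another annotated gene, and the sources used here do not state whether reads were counted by strand. Those 28 genes include EDS5, SARD1, SARD4, scpl16, LHT7, ANK, BAM6, BOA, MYC2, FRK1, RLP23, WAK2, LHCB2.3, GUN4, CAO and CA1. Reads within a stretch that such a gene shares with its partner cannot be told apart. The extent of these stretches was not measured. In whole rosettes, fewer cells of a type and less RNA per cell cannot be told apart either.

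Below are the 250 bases upstream of the annotated start of 4 genes (TAIR10.1, RefSeq), chosen among the genes that rose because their windows hold a searched motif: PDF1.2A and PDF1.2B of the jasmonate and ethylene response, and BOA and LUX of the clock. The windows of PDF1.2C and PDF1.3, whose genes rose more than PDF1.2B, hold no GCCGCC, and those of ELF4 and RVE2, whose genes rose more than LUX, hold no AAAATATCT. Capitals mark GCCGCC, the GCC box bound by factors such as ORA59, in the defensins, and AAAATATCT, the evening element bound by CCA1-type factors, or its reverse complement in the others. PDF1.2A lies at chr5:17907639-17907888 on the minus strand, PDF1.2B at chr2:11088873-11089122 on the plus strand, BOA at chr5:24003638-24003887 on the plus strand, and LUX at chr3:17182792-17183041 on the plus strand.
PDF1.2A: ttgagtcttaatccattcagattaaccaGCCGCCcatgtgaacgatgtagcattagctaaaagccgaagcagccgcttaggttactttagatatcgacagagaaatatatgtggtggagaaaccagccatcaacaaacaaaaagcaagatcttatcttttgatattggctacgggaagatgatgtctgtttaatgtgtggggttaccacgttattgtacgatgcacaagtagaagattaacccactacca
PDF1.2B: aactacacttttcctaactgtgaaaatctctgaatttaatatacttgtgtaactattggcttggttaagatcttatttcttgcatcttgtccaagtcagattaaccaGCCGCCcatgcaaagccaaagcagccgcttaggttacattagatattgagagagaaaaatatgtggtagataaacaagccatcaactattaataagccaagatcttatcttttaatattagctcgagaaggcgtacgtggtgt
BOA: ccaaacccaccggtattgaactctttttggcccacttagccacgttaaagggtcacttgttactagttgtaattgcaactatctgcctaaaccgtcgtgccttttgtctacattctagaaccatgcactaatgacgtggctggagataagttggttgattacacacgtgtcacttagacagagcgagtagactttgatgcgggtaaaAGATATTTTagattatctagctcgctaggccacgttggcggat
LUX: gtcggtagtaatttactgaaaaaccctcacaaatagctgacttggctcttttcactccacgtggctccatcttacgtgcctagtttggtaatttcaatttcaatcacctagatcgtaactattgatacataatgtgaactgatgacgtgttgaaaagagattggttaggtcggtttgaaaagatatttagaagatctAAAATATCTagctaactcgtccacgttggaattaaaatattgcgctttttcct

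Motifs were searched on both strands of these 250 bases in the 18275 tested genes with such a window. The evening element was in 2.63% of all windows, in 8.09% of the 235 windows of genes that were at least 2-fold higher in ceh1/eds16 and in 1.74% of the 230 of genes at least 2-fold lower. TTGAC, the core of the W-box bound by WRKY factors, was in 44.7% of all windows, in 57.4% of the lower set and in 46.8% of the higher set. TGACG, the core of the site bound by TGA factors, which can overlap TTGAC by 4 letters, was in 19.4%, 26.1% and 21.3% in the same order. GCCGCC was in 1.98%, 0.87% and 3.4%. These shares describe letters in a window and not bound sites, and they carry no test.

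ICS1 itself (chromosome 1, 28070295 to 28074177, TAIR10.1, protein-coding) checks the eds16 label. Its libraries read 631, 677 and 690 in ceh1 and 14.2, 20.5 and 28.3 in ceh1/eds16. The genotypes were far apart, and ceh1/eds16 was close to eds16, which read 19.2, 16 and 10.4. The difference was -4.97 ± 0.23 (SE), a 31.4-fold lower level (adjusted p = 6.19e-10, limma).

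Among the other genes of salicylic acid synthesis and its regulators, the response was mixed. Of 13 members 2 rose and 2 fell, counting ICS1, and the median difference was 0.02. PBS3, whose enzyme joins isochorismate to glutamate on the way to salicylic acid, read 508, 497 and 548 in ceh1 and 1201, 1163 and 937 in ceh1/eds16, without overlap. It was 2.11-fold higher (1.08 ± 0.14 SE, adjusted p = 6.17e-05, limma). EDS5, the plastid envelope transporter of isochorismate, read 217, 193 and 263 in ceh1 and 538, 545 and 326 in ceh1/eds16. All 3 of its ceh1/eds16 libraries were above ceh1, by 1.04 ± 0.23 on average (SE, adjusted p = 0.00734, limma), with replicate 3 the lowest of them. SARD1, a transcription factor that activates ICS1, fell from 1251 ± 118 to 736 ± 88.1 (SD, adjusted p = 0.0149, limma), and lost its call without replicate 1 or 3 of ceh1 (adjusted p up to 0.0646). Its relative CBP60G went from 1029 ± 200 to 1333 ± 259 and did not pass, with an interval of -0.04 to 0.79 for the log2 difference. None of the 4 PAL genes of the phenylalanine route to salicylic acid passed.

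Genes for the modification of salicylic acid fell. Of 8 measured members 5 fell and none rose, with a median difference of -0.78, and 4 fell without replicate 3 of ceh1/eds16. UGT76B1, a glucosyltransferase active on N-hydroxypipecolic acid and salicylic acid, read 37.5, 39.7 and 36.9 in ceh1 and 2.67, 5.39 and 5.86 in ceh1/eds16. It was 7.18-fold lower (adjusted p = 0.000535, limma), and few reads stand behind the lower values. DLO1 and DMR6, the hydroxylases that degrade salicylic acid, fell by 2.25 ± 0.31 and by 1.69 ± 0.14 (SE, adjusted p = 0.000132 and 9.48e-07, limma). DMR6 read 5660, 5491 and 5556 in ceh1 and 1976, 1831 and 1414 in ceh1/eds16, and its groups lay well apart while each stayed above Col-0 (1004 ± 178, SD). The methyl salicylate esterase gene MES9 fell by 0.91 (adjusted p = 0.0413, limma), and this call was lost in 5 of the leave-outs (any of the 3 ceh1 replicates, or replicate 2 or 3 of ceh1/eds16, adjusted p up to 0.155).

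The receptors of salicylic acid and the TGA factors moved little, while the NIMIN genes, whose products bind NPR1, fell strongly. Of the 13 members of this list 3 fell and none rose, with a median of -0.24. NIMIN1 read 207, 156 and 142 in ceh1 against 13.3, 11.9 and 22.5 in ceh1/eds16, a 10.2-fold lower level (-3.36 ± 0.34 SE, adjusted p = 6.51e-06, limma). NIMIN2 read 200, 203 and 119 in ceh1 and 19.6, 15.1 and 57.6 in ceh1/eds16 (-2.66 ± 0.48 SE, adjusted p = 0.00163, limma). Both sets of libraries were separate for each gene, and replicate 3 of ceh1/eds16 held the highest value of its group for both. NPR4, a receptor that represses defence genes in the absence of salicylic acid, fell by 0.51 (adjusted p = 0.0214, limma, and up to 0.0883 without replicate 1 or 3 of ceh1). NPR1 went from 686 ± 55.8 to 591 ± 83.7 (SD) and did not pass.

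Of 12 output genes of salicylic acid 8 fell and 1 rose, with a median of -0.64. PR1 (chromosome 2, 6241640 to 6242541, protein-coding), the standard marker of this response, read 8934, 8031 and 5200 in ceh1 and 105, 59.3 and 92.7 in ceh1/eds16. Those last 3 values lay below all Col-0 libraries (181, 409 and 343) and above the eds16 ones (40.3, 53.2 and 36.3). PR1 was 85.4-fold lower (-6.42 ± 0.28 SE, adjusted p = 3.3e-10, limma), the largest fall among the genes named by the rule.

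PR2, a glucanase gene, and PR5, a thaumatin-like gene, are usually read with PR1 and behaved differently here. PR2 read 7265, 5774 and 5647 in ceh1 and 4927, 5278 and 5986 in ceh1/eds16. The groups overlapped, and all 6 libraries were far above Col-0 (496, 828 and 582). The difference of -0.20 ± 0.16 (SE) did not pass (adjusted p = 0.502, limma), and its 95% interval ran from 0.687-fold to 1.1-fold. PR5 read 1201, 1057 and 959 in ceh1 and 772, 1045 and 1247 in ceh1/eds16, again overlapping, with an interval of 0.712-fold to 1.24-fold (adjusted p = 0.827, limma). In the Col-0 background both genes depended on ICS1: eds16 was lower than Col-0 by 2.02 for PR2 (adjusted p = 2.2e-06) and by 1.96 for PR5 (adjusted p = 1.5e-05), and the difference between the backgrounds was 1.82 and 1.87 (adjusted p = 0.00025 and 0.00079, limma). For PR1 the difference between the backgrounds had the opposite sign, -3.66 (adjusted p = 6.2e-05), as the gene fell more in ceh1 than in Col-0.

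LURP1, needed for basal defence against an oomycete, fell by 2.47 (5494 ± 334 to 1006 ± 234, SD), and PCC1, a small membrane protein gene induced by pathogens, by 2.80 (1715 ± 281 to 254 ± 89.9). GRX480, a glutaredoxin that binds TGA factors, went from 106, 100 and 118 in ceh1 to 17.8, 21.6 and 59.6 in ceh1/eds16. It fell by 1.88 (adjusted p = 0.00694, limma), and by 2.40 without replicate 3 of ceh1/eds16, which held the highest of the lower values. GRXS13, another glutaredoxin, fell by 1.40. AED1, an apoplastic protease induced in systemic immunity, fell by 0.63 from 5380 ± 342 to 3474 ± 320 and stayed above Col-0 (897 ± 215). AIG1, named for induction by a bacterial effector, rose from 990 ± 48.6 to 1685 ± 72.6 (adjusted p = 0.0216, limma), a call lost without any 1 of the 3 ceh1 replicates or without replicate 1 of ceh1/eds16 (adjusted p up to 0.0729).

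**Figure D1:**
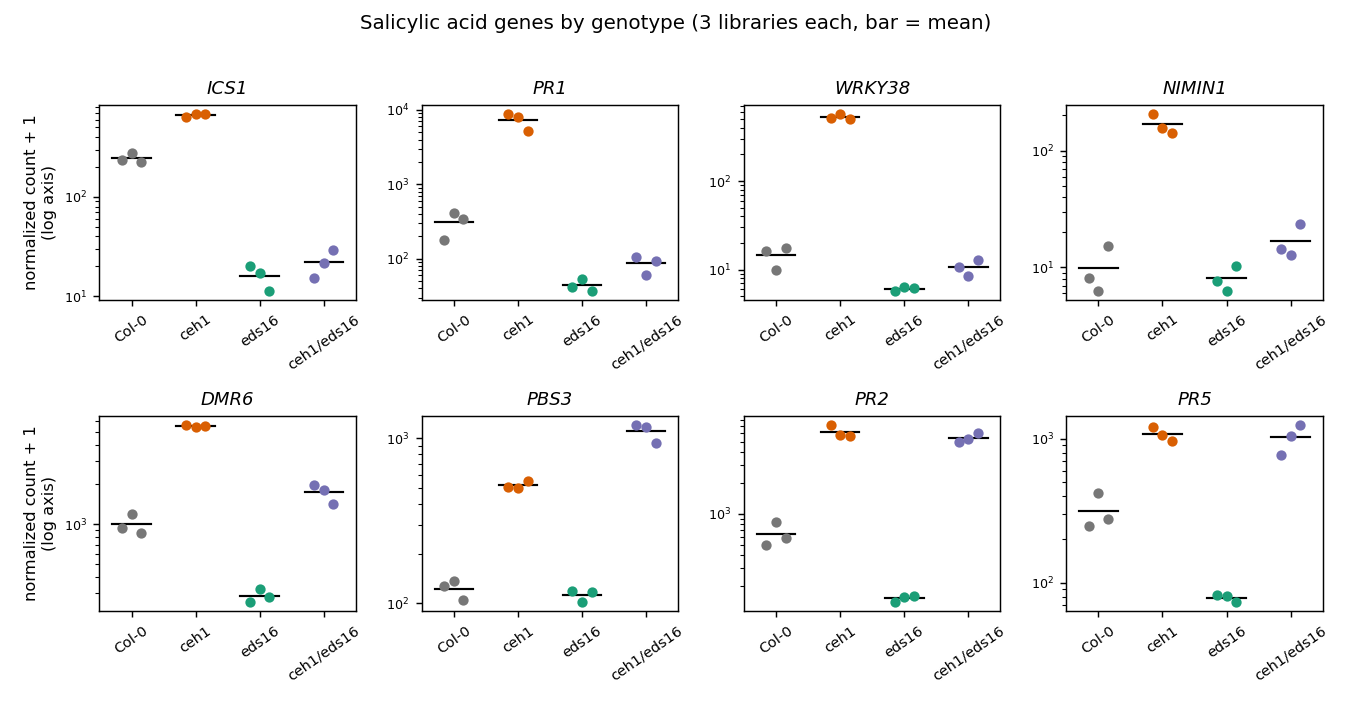
Normalized count plus 1 (log axis) of 8 salicylic acid genes in each library of the 4 genotypes; points are libraries and bars are group means. ICS1, PR1, WRKY38 and NIMIN1 are at least 10.2-fold below their ceh1 level when ICS1 is lost and DMR6 is 3.23-fold below it, PBS3 is 2.11-fold higher, and the ceh1 and ceh1/eds16 points of PR2 and PR5 overlap.

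WRKY factors, a plant family of defence regulators, fell with PR1 in most cases. Of 11 members on the immunity list 8 fell and 2 rose, with a median of -0.91. WRKY38, a repressor of basal defence, read 507, 575 and 496 in ceh1 and 9.78, 7.55 and 11.7 in ceh1/eds16, about the Col-0 level of 15.5, 8.92 and 16.7. That is a 49.9-fold lower level (-5.64 ± 0.26 SE, adjusted p = 6.19e-10, limma). WRKY62, its close relative, read 44.1, 44.4 and 49.8 against 3.56, 2.16 and 3.9 (11.4-fold lower, adjusted p = 7.36e-05, limma). WRKY51 read 351, 382 and 302 against 46.2, 30.2 and 49.8, which was still above Col-0 (5.12 ± 2.91, SD). WRKY54 and WRKY70, paired regulators of salicylic acid responses, fell by 2.03 and by 1.00, and WRKY70 at 1675 ± 30.1 stayed above Col-0 at 765 ± 66.2 (SD).

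The pair that rose, WRKY33 and WRKY40, respond to fungi and to wounding. WRKY40 read 299, 327 and 571 in ceh1 and 719, 626 and 760 in ceh1/eds16 (adjusted p = 0.0262, limma). WRKY33 read 1416, 1157 and 1879 against 2535, 2462 and 1742, where the groups overlapped (adjusted p = 0.047, limma). In both genes replicate 3 of ceh1 was the highest of its group. These calls were fragile: without replicate 1 or 2 of ceh1, or without replicate 1 of ceh1/eds16, no member of the list was called as risen, the adjusted p reaching 0.159 for WRKY40 and 0.233 for WRKY33, and WRKY33 also missed the threshold without Col-0 replicate 3, without ceh1/eds16 replicate 2 or without any 1 of the eds16 replicates.

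N-hydroxypipecolic acid is the mobile signal of systemic immunity and is made from lysine by ALD1, SARD4 and FMO1. Its first and last genes rose while its middle one fell. FMO1, the N-hydroxylase, read 58.2, 66.9 and 59.8 in ceh1 and 529, 548 and 402 in ceh1/eds16, 7.83-fold higher and without overlap (2.97 ± 0.32 SE, adjusted p = 1.09e-05, limma). ALD1, the aminotransferase, read 52.4, 41.1 and 49.8 against 182, 141 and 130 (3.1-fold higher, adjusted p = 0.000198, limma). SARD4, the reductase, read 280, 314 and 313 against 192, 183 and 220, lower by 0.61 (adjusted p = 0.00679, limma). In the Col-0 background FMO1 and ALD1 were at 9.28 ± 4.34 and 17.8 ± 4.71, and in eds16 at 5.57 ± 2.82 and 12.8 ± 2.02 (SD). The difference between the backgrounds was 3.64 for FMO1 (adjusted p = 0.00025) and 2.07 for ALD1 (adjusted p = 0.0019, limma).

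Of the EDS1 family and its helper receptors, which relay signals of intracellular immune receptors, none of 9 passed, the median difference being 0.09, against 10.2% of all genes. EDS1 read 934, 991 and 1112 in ceh1 and 1132, 1111 and 1076 in ceh1/eds16, and PAD4 964, 939 and 949 against 937, 1062 and 1078. The 2 groups overlapped for both genes, and both stood above Col-0, where EDS1 was at 392 ± 31.7 and PAD4 at 370 ± 41.6 (SD).

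Most receptor kinases at the cell surface did not pass, and those that passed fell. Of 22 cysteine-rich receptor kinases 7 fell and none rose, with a median of -0.05. CRK6, the member with the largest fall, read 1166, 1057 and 1137 in ceh1 and 525, 491 and 397 in ceh1/eds16, a 2.39-fold difference (adjusted p = 0.000281, limma), and it remained above Col-0 at 178 ± 60.7 (SD). CRK8, CRK15 and CRK5 fell by 0.92, by 0.87 and by 0.82. Without replicate 3 of ceh1/eds16 7 fell and 2 rose. Among 4 measured wall-associated kinases WAK1 and WAK2 fell, by 0.55 and by 0.66 (adjusted p = 0.00362 and 0.00408, limma).

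In pattern-triggered immunity, the response to microbial molecules, 4 of 19 members fell and 3 rose, with a median of -0.04. FRK1, a kinase gene used as a marker of this response, read 221, 196 and 177 in ceh1 and 58.7, 74.4 and 42 in ceh1/eds16, a 3.43-fold lower level (adjusted p = 0.000486, limma). The receptor genes RLP23 and BKK1 fell by 0.79 and by 0.57. RLP23 lost its call without replicate 1 or 2 of ceh1 or replicate 2 of ceh1/eds16 (adjusted p up to 0.0562), and BKK1 without replicate 3 of ceh1 (0.0621). RBOHD, the oxidase of the immune oxidative burst, read 487, 444 and 581 against 815, 952 and 718, without overlap, 1.64-fold higher (adjusted p = 0.00243, limma). Of the 3 members that rose, 1 did so with library totals as the scale. The same number, 1, was left without replicate 1 or 2 of ceh1 or of ceh1/eds16.

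Endoplasmic reticulum chaperones and folding factors of the unfolded protein response, whose capacity salicylic acid is known to raise through NPR1, fell by small amounts: 8 of 24 fell and none rose, with a median of -0.34. UTR1, a nucleotide sugar transporter, read 742, 665 and 720 in ceh1 and 436, 411 and 368 in ceh1/eds16, a 1.75-fold lower level (adjusted p = 0.000273, limma). The calreticulin gene CRT3 fell from 4077 ± 184 to 2364 ± 88.3 and the chaperone gene HSP90.7 from 8162 ± 174 to 5620 ± 494 (SD, adjusted p = 0.000223 and 0.00406, limma). All 3 stayed above Col-0, where they stood at 95.4 ± 2.7, 1547 ± 201 and 3029 ± 246. The number that fell was 5 without replicate 1 or 2 of ceh1 or replicate 1 of ceh1/eds16.

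Beyond these lists, the genes with the largest falls included several without a settled place in salicylic acid signalling. ARD3, an acireductone dioxygenase of methionine salvage, read 477, 466 and 348 in ceh1 and 22.2, 15.1 and 20.5 in ceh1/eds16, a return to the Col-0 level of 20.3 ± 4.06 (SD). It was 21.3-fold lower (adjusted p = 5.79e-09, limma). The cadmium resistance gene PCR1 fell by 3.97, from 3480 ± 628 to 222 ± 50.6 (SD). BG3, a glucanase gene that lies close to PR2 on chromosome 3, fell by 3.61, from 225, 197 and 158 to 8.89, 20.5 and 17.6, in contrast to the overlapping PR2 values.

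Other genes of this set were the serine carboxypeptidase-like gene scpl16 (-3.33), the xyloglucan transglucosylase gene XTH10 (-3.10), the triterpene synthase gene LUP5 (-3.06), the amino acid transporter gene LHT7 (-2.95) and the ankyrin repeat gene ANK (-2.48). XTH10 read 27.6, 5.39 and 19.5 in ceh1/eds16, against 134, 133 and 131 in ceh1. All of these had an adjusted p of at most 0.000146 (limma), and every one of their ceh1/eds16 libraries was below every ceh1 library. A pass and separate libraries were conditions of the naming rule for this set, so neither is support of its own. Of all tested genes 27.0% had no overlap.

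The opposite direction was led by plant defensins. In the branch of the jasmonate and ethylene response run by ORA59 and ERF1, 7 of 8 measured members rose and none fell, with a median of 4.04. PDF1.2A, the usual marker of this branch, read 13.6, 17.9 and 8.97 in ceh1 and 1121, 756 and 2153 in ceh1/eds16. The ceh1 libraries were at the Col-0 level (17.8 ± 2.38, SD), eds16 was slightly above it (48, 57.2 and 33.1), and only the plants with both lesions were high. The change was 87.3-fold (6.45 ± 0.32 SE, adjusted p = 1.3e-09, limma).

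PDF1.2C read 5.36, 1.99 and 5.98 in ceh1 and 532, 355 and 1225 in ceh1/eds16, and PDF1.3 read 11.5, 9.27 and 12 against 699, 473 and 1601. PDF1.2B, with 7.42, 6.62 and 7.97 against 373, 236 and 636, was 46.1-fold higher. In each of the 4 defensin genes replicate 3 of ceh1/eds16 was the highest, and without it the differences were still 6.42 for PDF1.2C, 6.04 for PDF1.2A, 5.60 for PDF1.3 and 5.16 for PDF1.2B. The coding sequences of the 4 genes have 243 bases each and are 91.4% to 94.7% identical, so the split of reads among them is uncertain. The transcription factor gene ORA59 read 36.3, 47 and 37.9 against 178, 137 and 271, a 4.59-fold rise (adjusted p = 0.000593, limma). THI2.1, a thionin gene, rose by 2.56 and PR4, a chitin-binding protein gene, by 0.94, from 1343 ± 162 to 2577 ± 340 (SD). The basic chitinase gene CHI-B was the member that did not pass, at 30.4 ± 6.23 and 24.3 ± 3.53.

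Loss of ICS1 in the Col-0 background raised 3 of these 8 genes, PDF1.2A by 1.3, PDF1.2C by 1.95 and THI2.1 by 1.46 (adjusted p = 0.029, 0.012 and 0.0098, limma). The difference between the backgrounds passed for 6 of the 8, and it was 5.15 for PDF1.2A, 4.96 for PDF1.2C, 5.25 for PDF1.3, 4.53 for PDF1.2B and 2.98 for ORA59 (adjusted p = 9.5e-06, 0.00013, 1.7e-05, 0.0013 and 0.0028, limma). For THI2.1 it was 1.1 and did not pass (adjusted p = 0.138). Of all tested genes 1.63% rose in eds16 against Col-0, and 3.08% had a positive difference between the backgrounds that passed.

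Genes of jasmonate synthesis and breakdown rose less: 6 of 19 rose and none fell, with a median of 0.39. AOS, the allene oxide synthase at the entry of the pathway, read 695, 778 and 804 in ceh1 and 1505, 1598 and 2148 in ceh1/eds16, without overlap and close to Col-0 at 1379 ± 123 (SD). It was 2.28-fold higher (adjusted p = 1.86e-05, limma). The allene oxide cyclase genes AOC1 and AOC2, whose coding sequences are 89.9% identical, rose by 1.13 and by 1.16. HPL1, a gene of the hydroperoxide lyase type, went from 69.3, 53 and 60.8 to 207, 241 and 218 (3.61-fold, adjusted p = 3.5e-06, limma). LOX2, the plastid lipoxygenase, rose by 0.73 and JOX2, which hydroxylates and so inactivates jasmonate, by 1.11.

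Of the JAZ repressors, which are early targets of jasmonate, 4 of 9 rose and none fell, with a median of 0.45. JAZ1 read 989, 1109 and 1442 in ceh1 and 2293, 1893 and 1700 in ceh1/eds16 (adjusted p = 0.0376, limma). The others were JAZ5 at 0.87, JAZ9 at 0.54 and JAZ2 at 0.41. Without replicate 1 or replicate 2 of ceh1 none of the 4 was called, with an adjusted p of up to 0.18 for JAZ1, 0.0957 for JAZ5, 0.0773 for JAZ9 and 0.207 for JAZ2. Without replicate 1 or 2 of ceh1/eds16, or with library totals as the scale, 2 members were.

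The MYC branch controls wound responses and is antagonistic to ORA59. Of its 12 members 2 rose and 1 fell, with a median of 0.34. MYC2, its main regulator, read 563, 578 and 895 against 1181, 1203 and 1073 (1.73-fold higher, adjusted p = 0.00421, limma). CLH1, a chlorophyllase gene, rose 2.28-fold (adjusted p = 1.69e-05), and TAT3, a tyrosine aminotransferase gene, fell by 0.77 (adjusted p = 0.00415). The storage proteins VSP1 and VSP2, standard markers of this branch, were at 435 ± 73.5 and 579 ± 74.7 in ceh1 and at 533 ± 51.2 and 733 ± 66.5 in ceh1/eds16 (SD) and did not pass. In the Col-0 background the loss of ICS1 raised both, by 1.42 and by 1.98 (adjusted p = 0.0054 and 0.0025, limma), with eds16 libraries of 2062, 3422 and 860 for VSP2. The difference between the backgrounds, -1.63 for VSP2, did not pass (adjusted p = 0.0525).

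**Figure D2:**
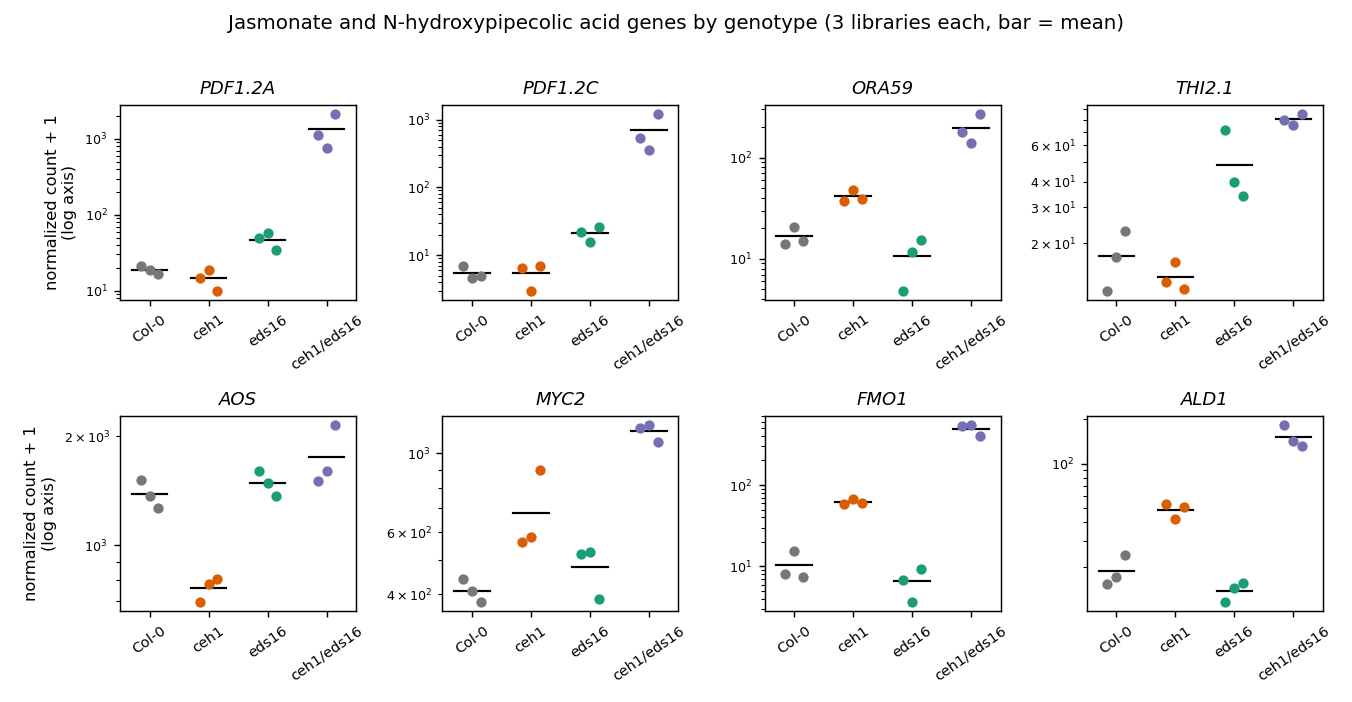
Normalized count plus 1 (log axis) of jasmonate genes (PDF1.2A, PDF1.2C, ORA59, THI2.1, AOS, MYC2) and N-hydroxypipecolic acid genes (FMO1, ALD1) in each library of the 4 genotypes; points are libraries and bars are group means. The ceh1/eds16 libraries of PDF1.2A are at 756 to 2153, with all other libraries at 57.2 or less, and FMO1 is at 402 to 548 against at most 66.9.

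Ethylene synthesis and signalling gave 1 rise and no fall in 16 members, with a median of 0.01. Of all tested genes 5.93% rose, so this count is near the share of all genes. ACS6, the stress-induced ACC synthase gene, read 177, 172 and 382 in ceh1 and 622, 670 and 596 in ceh1/eds16, a 2.77-fold rise (adjusted p = 0.000725, limma). Without replicate 3 of ceh1/eds16 2 members rose and 1 fell. Camalexin and indole glucosinolate genes, which make tryptophan-derived defence compounds, gave 6 rises and no fall in 14 members, with a median of 0.41. CYP71A12 read 131, 115 and 154 in ceh1 and 390, 396 and 363 in ceh1/eds16, and PAD3, the last step of camalexin synthesis, read 494, 500 and 659 against 1281, 1089 and 1162. Both were clearly separated, with rises of 2.88-fold and 2.15-fold (adjusted p = 0.000952 and 0.000924, limma). CYP71A13, whose product shares the step of CYP71A12, read 96.1, 94.7 and 95.7 against 101, 105 and 77.1 and did not pass. MYB51, the regulator of indole glucosinolates, rose by 0.76 and the methyltransferase gene IGMT1 by 1.1. The 18 aliphatic glucosinolate genes had no member that passed, and their median was -0.08.

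The circadian clock list changed in both directions, with large steps. Of 21 members 7 rose and 6 fell, with a median of 0.04. Without replicate 3 of ceh1/eds16 9 rose and 6 fell. The 6 that fell were CCA1, LHY, RVE1, RVE8, LNK2 and PRR9, which are known to peak from dawn to midday. The 7 that rose were the evening genes TOC1, GI, ELF4, LUX, BOA and FKF1, and RVE2, a relative of CCA1 that is not an evening gene. CCA1, a dawn repressor, read 308, 306 and 310 in ceh1 and 153, 127 and 58.6 in ceh1/eds16, below all Col-0 libraries (770, 733 and 734). It fell by 1.55 ± 0.23 (SE, adjusted p = 0.000289, limma), and by 1.14 without replicate 3, which held the lowest value.

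LHY, the partner of CCA1, fell by 1.13 and PRR9, a morning repressor of both, by 1.64, from 247, 264 and 227 to 114, 72.3 and 57.6. RVE8, an activator of evening genes, read 198, 180 and 189 in ceh1 and 83.6, 65.8 and 42 in ceh1/eds16 (-1.60 ± 0.19 SE, adjusted p = 3.43e-05, limma). Here ceh1 was not below Col-0 (161, 187 and 179), and the ceh1/eds16 libraries were below those of all other genotypes. LNK2, a partner of RVE8, fell by 1.04 and RVE1, which links the clock to auxin, by 0.97.

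Among the evening genes ELF4, a subunit of the evening complex, read 226, 235 and 259 in ceh1 and 1001, 1070 and 1928 in ceh1/eds16, against 40.4, 58.9 and 67 in Col-0. It rose 5.3-fold (2.41 ± 0.28 SE, adjusted p = 3.19e-05, limma). The DNA-binding subunits LUX and BOA followed: LUX read 278, 254 and 288 against 593, 702 and 1172, and BOA 16.5, 15.2 and 22.9 against 91, 127 and 177, a 6.75-fold rise for BOA (adjusted p = 8.41e-06, limma). In the 3 subunit genes replicate 3 of ceh1/eds16 was the highest, and without it the rises were 2.11 for ELF4, 1.24 for LUX and 2.52 for BOA.

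TOC1, the evening repressor of CCA1, read 579, 518 and 680 against 1580, 1737 and 1533 (2.74-fold, adjusted p = 5.08e-06, limma). FKF1, a light receptor with a role in flowering time, rose by 1.29. RVE2 read 27.6, 42.4 and 39.9 against 307, 318 and 407 (9.24-fold, adjusted p = 3.37e-07, limma). GI rose by 0.69 with overlapping libraries (509, 493 and 702 against 1032, 1163 and 621, adjusted p = 0.037, limma). It lost its call in 6 of the leave-outs (replicate 2 of Col-0 or of eds16, or replicate 1 or 2 of ceh1 or of ceh1/eds16, adjusted p up to 0.154). The hour of harvest of each genotype is not given in the sources used here, and its part in the clock values was not tested.

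Outside this list, COR27, which links cold and clock, read 54.4, 55.6 and 101 in ceh1 and 639, 771 and 954 in ceh1/eds16. It was 11.4-fold higher (adjusted p = 1.43e-06, limma). JMJD5, a histone demethylase gene associated with the clock, read 17.7, 21.2 and 28.9 against 269, 337 and 494 (15.4-fold higher, adjusted p = 5.92e-07, limma), with Col-0 at 12.1 ± 4.1 (SD). BT2, a BTB and TAZ domain gene, rose 7.41-fold, from 291 ± 126 to 2062 ± 333, and COL9, a CONSTANS-like gene, 5.89-fold, from 229 ± 52.5 to 1330 ± 51.3 (SD).

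In the Col-0 background the loss of ICS1 changed 1 clock member, RVE2, which was higher by 0.99 (adjusted p = 0.0323, limma). There 4.6% of all tested genes changed. Of all tested genes 3.08% had a positive and 1.79% a negative difference between the backgrounds that passed. That difference passed for 9 of the 21 clock members, 5 with a positive and 4 with a negative sign. It was 1.61 for ELF4 (adjusted p = 0.031), 1.24 for LUX (0.0144), 2.66 for BOA (0.0015), 1.56 for TOC1 (0.000419), -1.26 for CCA1 (0.0368) and -1.38 for RVE8 (0.00769, limma).

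**Figure D3:**
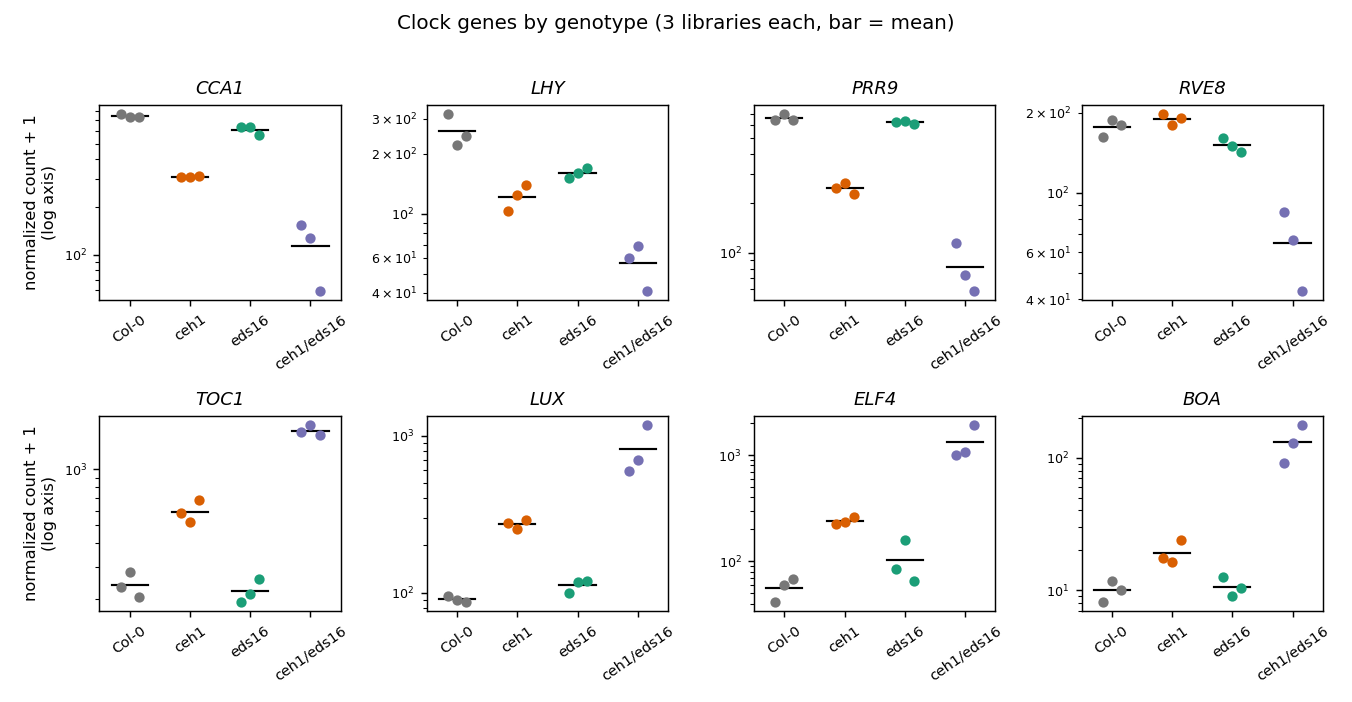
Normalized count plus 1 (log axis) of 4 dawn or morning clock genes (CCA1, LHY, PRR9, RVE8, upper row) and 4 evening genes (TOC1, LUX, ELF4, BOA, lower row) in each library of the 4 genotypes; points are libraries and bars are group means. The ceh1/eds16 libraries are the lowest of the 4 genotypes for each gene of the upper row and the highest for each gene of the lower row, for example 58.6 to 153 for CCA1 against 306 to 310 in ceh1.

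Rapid general stress genes, which respond within minutes to wounding, chemicals and excess light, rose as a list: 12 of 17 measured members rose and none fell, with a median of 1.02. ZAT6, a zinc finger factor, read 110, 104 and 214 in ceh1 and 335, 401 and 413 in ceh1/eds16 (2.81-fold, adjusted p = 0.000406, limma). SZF1, a zinc finger protein, read 584, 539 and 1068 against 1344, 1509 and 1635, and ERF5, a stress factor of the ethylene response family, 74.6, 92.7 and 131 against 257, 201 and 294. In these genes replicate 3 of ceh1 was the highest of its group and stood between the genotypes. The count depended on single libraries: it was 3 without replicate 1 and 4 without replicate 2 of ceh1, and 8 without replicate 3 of ceh1/eds16.

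Of the cold regulon, 5 of 13 members rose and none fell, with a median of 0.65. COR15A, a chloroplast protein that protects membranes in the cold, read 167, 174 and 178 against 483, 443 and 579 (2.87-fold, adjusted p = 2.96e-06, limma). RD29A rose by 1.05 and COR15B by 0.78. COR15B was not called without replicate 2 or 3 of ceh1 (adjusted p up to 0.079). CBF1, the regulator of these genes, was near the limit of the filter at 4.54, 3.31 and 15 in ceh1 and 29.3, 20.5 and 30.3 in ceh1/eds16 (adjusted p = 0.0418, limma), a call lost without any 1 of the ceh1/eds16 replicates, replicate 1 or 2 of ceh1, or replicate 2 of Col-0 or of eds16 (adjusted p up to 0.188). Without replicate 1 or 2 of ceh1, 3 members of the list rose.

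Of 30 nuclear genes of photosynthesis 7 rose and 6 fell, with a median of 0.20. The 6 that fell are LHCB genes, whose products bind chlorophyll in the antenna of photosystem II. LHCB2.1 read 10161, 8691 and 7914 in ceh1 and 4021, 4077 and 5029 in ceh1/eds16, further below Col-0 (21804 ± 1840, SD) than ceh1 was. LHCB2.1, LHCB2.2 and LHCB2.3 fell by 1.03, by 0.97 and by 1.13 (adjusted p = 0.000101, 0.000109 and 4.27e-05, limma), and the coding sequences of the first pair are 96.6% identical. The 7 that rose were PSBS, PETC, ATPC1, RBCS1B, GAPA, GAPB and PRK, of photoprotection, electron transport, ATP synthesis and carbon fixation, and PSBS was not called without replicate 2 of ceh1 (adjusted p = 0.0778). RBCS1B, a Rubisco small subunit gene, read 8302, 8428 and 6599 against 12244, 12337 and 20298, and GAPB, a Calvin cycle dehydrogenase gene, 5646, 4435 and 5533 against 9124, 10287 and 8598. Both moved towards Col-0, where they stood at 18878 ± 2168 and 11417 ± 678 (SD). Without replicate 3 of ceh1/eds16, 7 rose and 11 fell, and without replicate 1 or 2 of either genotype 3 fell.

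In chlorophyll synthesis GUN4, which activates the magnesium chelatase and is known in plastid signalling, fell from 837, 890 and 654 to 422, 389 and 451 (1.87-fold, adjusted p = 0.000804, limma). CAO, the chlorophyll b synthase gene, fell by 0.80. In this list of 14, 3 fell and 2 rose. Of the latter, DVR and PORC, neither was called without replicate 1 or 2 of ceh1 (adjusted p up to 0.114 for DVR and 0.164 for PORC). PORC was also lost without replicate 3 of ceh1, replicate 1 or 2 of ceh1/eds16, replicate 1 of eds16 or replicate 2 or 3 of Col-0. HEMA1 fell by 0.46 and was not called without any 1 of the ceh1 replicates, replicate 3 of ceh1/eds16, replicate 1 of eds16 or replicate 2 or 3 of Col-0 (adjusted p up to 0.127).

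In the MEP pathway, the route with the ceh1 lesion, 2 of 7 members rose and none fell, with a median of 0.11. HDS read 1565, 1362 and 1840 in ceh1 and 2237, 2649 and 2128 in ceh1/eds16, between ceh1 and Col-0 (3765 ± 159, SD). The rise of 0.56 (adjusted p = 0.00806, limma) was not called without replicate 2 of ceh1 (0.0625). DXR, the enzyme that commits carbon to the pathway, read 1218, 1202 and 1252 against 1683, 1614 and 1645 (1.35-fold, adjusted p = 0.00803, limma).

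Of 8 cell wall expansion genes 4 fell and none rose, with a median of -0.45. The expansin gene EXPA1 read 3668, 3190 and 2403 in ceh1 and 1768, 1583 and 1487 in ceh1/eds16 (1.89-fold lower, adjusted p = 0.000398, limma), and EXPA8 fell by 0.68. The calls on EXPA5 and EXPA11 were lost without replicate 1 of ceh1, or of ceh1/eds16 (adjusted p up to 0.27 and 0.0879), where 2 members were called. EXPA5 was also lost without replicate 2 of ceh1 or of ceh1/eds16, replicate 2 or 3 of Col-0, or any 1 of the eds16 replicates. Among 15 cell cycle genes CDKB1;1 alone passed, lower by 0.66, and not without replicate 1 of ceh1/eds16 or any 1 of the ceh1 replicates (adjusted p up to 0.09). Of 15 auxin genes IAA7 passed, lower by 0.48, and not without replicate 1 or 2 of either genotype (adjusted p up to 0.0695). These cell cycle and auxin counts are near the 4.24% of all tested genes that fell.

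The senescence list had 3 rises and 2 falls in 10 members. DIN11, a dioxygenase gene induced in the dark, read 23.1, 22.5 and 33.9 in ceh1 and 409, 344 and 363 in ceh1/eds16, a 13.8-fold rise (adjusted p = 3.75e-07, limma). SEN1, another gene induced in the dark, rose 2.32-fold, while SAG13 and the regulator NAP fell by 0.95 and by 0.92. Of 12 abscisic acid genes the catabolic gene CYP707A3 rose, from 20.6, 21.9 and 69.8 to 125, 141 and 125 (adjusted p = 0.00188, limma), and ABF3 fell by 0.39, a call lost without any 1 of the ceh1 replicates, replicate 1 or 2 of ceh1/eds16, replicate 3 of Col-0 or replicate 1 of eds16 (adjusted p up to 0.142).

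In the other lists few members passed. Of all tested genes 5.93% rose and 4.24% fell. Oxidative and mitochondrial stress gave 3 rises in 16 members (GSTU4 at 1.17, CSD2 at 0.71 and OM66 at 0.54), and OM66 was not called without replicate 1 or 2 of ceh1 or replicate 2 of ceh1/eds16 (adjusted p up to 0.102). Heat shock gave 2 in 9, HSP70-4 and HSP90.1, and neither was called without replicate 2 or 3 of ceh1/eds16 or of ceh1 (adjusted p up to 0.114 and 0.121). HSP90.1 was also lost without replicate 1 of ceh1, replicate 2 of Col-0 or any 1 of the eds16 replicates. Flavonoid genes gave 1 rise, UGT75C1, and 1 fall, FLS1, in 9. The phosphate list gave a fall of 0.93 in SPX1 and a rise of 0.44 in SQD2 in 7 members, and iron gave none in 6. FLS1 was not called without replicate 1 of ceh1 (adjusted p = 0.051), nor SQD2 without replicate 1 of eds16 or replicate 1 or 2 of ceh1 or of ceh1/eds16 (adjusted p up to 0.131).

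Strong rises outside the lists included AACT1 (AT5G61160), an agmatine coumaroyltransferase gene of defence amides. It read 1.65, 1.32 and 0.997 in ceh1 and 117, 129 and 137 in ceh1/eds16, with Col-0 at 16.4 ± 5.9 (SD), so ceh1 was lowest of the 4 genotypes and ceh1/eds16 highest (5.80 ± 0.44 SE, adjusted p = 2.42e-07, limma). The ceh1 values are close to 0, so the size of this change depends on the value of 1 added before the log. MPL1, a lipase gene induced by aphids, rose 6.92-fold from 17.5 ± 8.25 to 119 ± 24.6, and BAM6, a beta-amylase gene, 5.94-fold from 49.1 ± 3.72 to 299 ± 47.2 (SD).

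**Figure D4:**
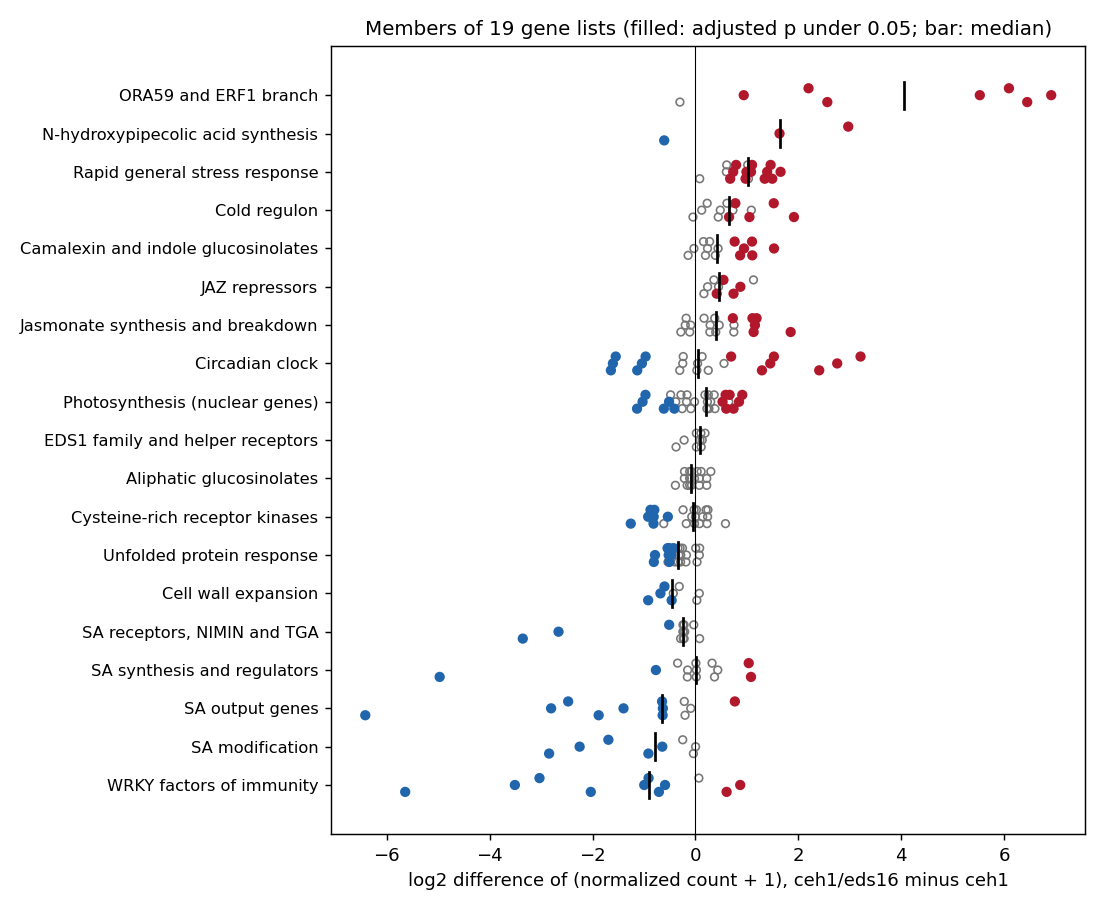
Log2 difference in ceh1/eds16 minus ceh1 for each measured member of 19 gene lists; filled points passed at an adjusted p under 0.05 (red higher, blue lower), open points did not, and vertical bars are list medians. The medians run from -0.91 for the WRKY factors to 4.04 for the ORA59 and ERF1 branch, the clock list has filled points on both sides, and the EDS1 family and the aliphatic glucosinolates have none.

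The same loss of ICS1 in Col-0 plants, eds16 against Col-0, shares no library with the comparison above. It changed 841 genes (4.6%), 299 higher (1.63%) and 542 lower (2.96%). Of the 776 genes that fell in the ceh1 background 155 also fell in the Col-0 background, which is 19.97% of the former and 28.6% of the 542. Of the 1084 that rose 95 also rose, 8.76% of them and 31.8% of the 299. Another 28 genes were higher in ceh1/eds16 and lower in eds16, and 10 were the reverse.

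A test of the difference between the backgrounds passed for 891 genes (4.87%), 564 with a positive sign (3.08%) and 327 with a negative sign (1.79%). Both counts moved with single libraries. Eds16 against Col-0 called 237 genes without replicate 2 of Col-0, 420 without its replicate 1, 288 and 308 without replicate 1 and 2 of eds16, 556 without replicate 1 of ceh1 and 1781 without replicate 3 of ceh1/eds16. The difference called 348 and 355 without replicate 1 and 2 of ceh1, 411 and 469 without replicate 1 and 2 of eds16, 432 without replicate 2 of Col-0, 498 without replicate 2 of ceh1/eds16 and 3013 without its replicate 3.

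Salicylic acid lists differed between the backgrounds in their make-up. Of the 12 output genes 10 fell in eds16 against Col-0, with a median of -1.61, where 8 fell in the ceh1 background with a median of -0.64. The difference between the backgrounds passed with a positive sign for 6 of the 12 and with a negative sign for 2. Besides PR2 and PR5, AED1 was among the positive ones: it fell by 1.85 in Col-0 and by 0.63 in ceh1 (difference 1.22, adjusted p = 0.00196, limma). The ICS1 change was -3.96 in Col-0 and -4.97 in ceh1 (difference -1.01, adjusted p = 0.086, limma), and that of BG3 was -3.91 in Col-0 and -3.61 in ceh1 (difference 0.30, adjusted p = 0.779, limma). Of the 9 EDS1 family members 4 fell in the Col-0 background and none in ceh1. Of 22 cysteine-rich receptor kinases 13 fell in Col-0 and 7 in ceh1. The difference between the backgrounds passed with a positive sign for 2 of the former (EDS1 and ADR1) and 3 of the latter (CRK10, CRK37 and CRK39). Of all tested genes 2.96% fell in the Col-0 background and 4.24% in ceh1, and 3.08% had a positive difference that passed.

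Genes that passed in both backgrounds with opposite signs were led by ERF4, a repressor of the ethylene response family, which read 141, 156 and 263 in ceh1 and 355, 357 and 627 in ceh1/eds16. It was higher by 1.26 here and lower by 0.87 through loss of ICS1 in Col-0 (adjusted p = 0.00261 and 0.0497, limma). The patatin-like lipase gene PLA2A rose by 0.87 in ceh1 and was lower by 1.19 in the Col-0 background (250 ± 50.3 and 110 ± 33.6, SD). IGMT2, a methyltransferase gene of indole glucosinolates, rose by 0.87 and was lower by 1.17 in the Col-0 background, its rise not called without replicate 1 or 3 of ceh1 or replicate 3 of ceh1/eds16 (adjusted p up to 0.0799). MRU1 moved the other way, lower by 0.81 in ceh1 and higher by 0.78 in Col-0 (adjusted p = 0.0194 and 0.0422, limma). Its fall was not called without replicate 1 or 2 of ceh1 or replicate 2 of ceh1/eds16 (adjusted p up to 0.117). UGT73B5, a glucosyltransferase gene, rose by 0.82 in ceh1 and was lower by 0.83 in the Col-0 background (adjusted p = 0.0248 and 0.0422, limma). Its rise was not called without replicate 1 or 2 of ceh1 or of ceh1/eds16 (adjusted p up to 0.127). The calls of these genes in the Col-0 background were not followed through the leave-outs.

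**Figure D5:**
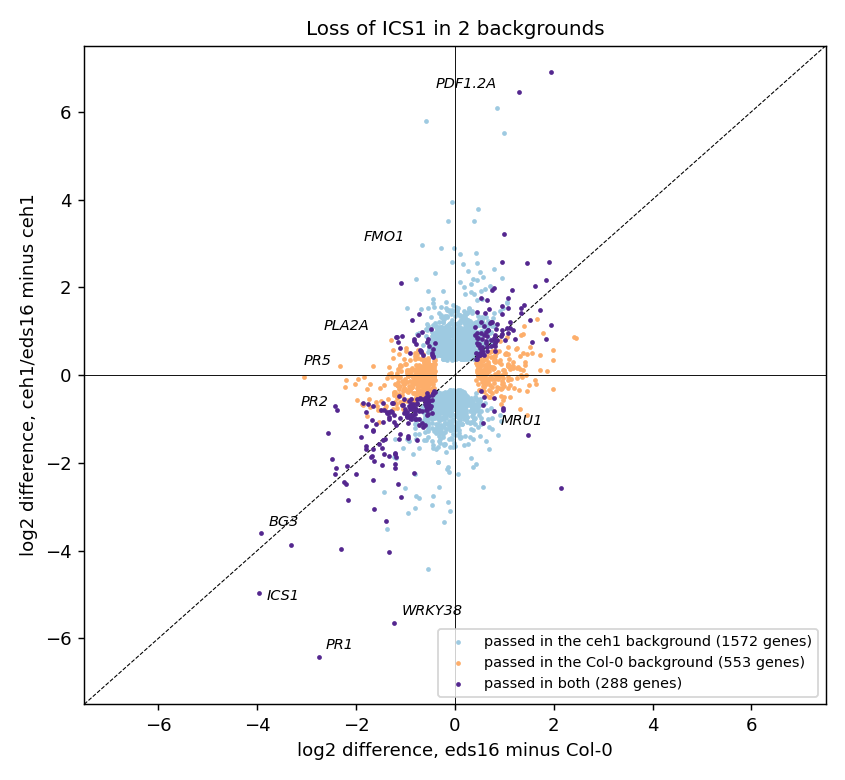
Log2 difference by loss of ICS1 in the Col-0 background (horizontal axis, eds16 minus Col-0) and in the ceh1 background (vertical axis, ceh1/eds16 minus ceh1), 1 point per gene that passed in at least 1 of them; the dashed line marks equal change. PR1 and WRKY38 lie below the line, BG3 near it, PR2 and PR5 near 0 on the vertical axis and about -2 on the horizontal axis (-2.02 and -1.96), and PDF1.2A far above it.

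Markers of cell types were looked at over whole lists. Leaf identity was clear in all libraries, with summed mesophyll markers at 113862 to 134582 in ceh1 and 114886 to 182389 in ceh1/eds16, and 1 of 4 passed, CA1, a chloroplast carbonic anhydrase, which rose from 3549, 3176 and 3038 to 8375, 9353 and 9609 (2.8-fold, adjusted p = 4.19e-07, limma). Seed storage markers summed to at most 4.3. Trichome markers (3 of 4 measured), flower markers (9 of 11) and root markers (3 of 5) had no member that passed. Summed over all members, trichome markers were at 106 to 117.6 in ceh1 and 101.4 to 110.3 in ceh1/eds16. Flower markers summed to 1514.2 to 1921.2 and 1744.6 to 2121, with SOC1 alone at a mean of 1479 and 1681. Root markers summed to 984.4 to 1217.1 and 955.7 to 1147.9, with PYK10 alone at a mean of 808 and 796. Of 7 stomatal markers FAMA rose by 0.60 (sums of 562.9 to 579.2 and 626.8 to 658.1), and of 7 vascular markers XCP1 fell by 0.73 (sums of 814.8 to 1095.5 and 800.5 to 905.2), a call lost without replicate 1 of ceh1 (adjusted p = 0.0662). The part of cell-type makeup in the results above was not tested.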

How the data were processed

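The 12 libraries are polyadenylated RNA of 3-week-old rosettes, 3 per genotype. The deposited values are normalized counts per gene, a signal on 1 scale per library; TopHat2, DESeq2 and TAIR10 are named in the submitters' processing notes, with no version given in the sources used here. Each column is made of whole multiples of 1 step (100% of values within 0.01), which gave the reads behind them, 4.99 M to 18.08 M per library. The filter was a mean of 10 or more across libraries, which 18289 of 33602 genes met.

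Differences were tested with limma 3.58.1 (R 4.3.3) on log2(normalized count + 1), with 4 group means, a mean-variance trend, 8 residual and 8.69 prior degrees of freedom, and Benjamini-Hochberg adjustment at 0.05. The model was run on simulated counts with the same spread for all genes. These held no outlying library and no gene length trend, so they do not bear on those features of the data. Alternatives were other pseudocounts, filters and scalings, robust variances, a replicate block, only the 6 libraries of a comparison, each library left out, and edgeR 4.0.16 and DESeq2 1.42.0 on recovered reads. Removal of the gene length trend was added after seeing the data.

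The comparison, the 41 gene lists (527 entries) and the naming rule were chosen with earlier results of these data known. The rule took the 15 genes with the largest change in each direction among those that passed, had a symbol, had no overlap between the 3 ceh1 and 3 ceh1/eds16 libraries and reached a mean of 100 in the higher group, then 6 each way by the difference between backgrounds, 6 with opposite signs in the backgrounds, the check genes (HDS, ICS1 and the 3 PR genes), and per list at most 4 genes that passed, or the 2 most abundant where none did. Coordinates and upstream sequences are RefSeq TAIR10.1. Replicate numbers were not treated as pairs in the main fit. Deviations of same-numbered ceh1 and ceh1/eds16 libraries correlated at -0.1, -0.448 and -0.44. Those of ceh1 replicate 2 with ceh1/eds16 replicate 3, and of ceh1 replicate 3 with ceh1/eds16 replicate 2, correlated at 0.421 and 0.438. Some of these deviations followed gene length, so they cannot show whether same-numbered plants were grown or harvested together.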

Additional observations from a re-analysis of the deposited data

Results flagged for a closer look

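The effect of losing ICS1 differed between the ceh1 and the Col-0 background for 64 of the 137 named genes. This is by the test of the difference itself (limma, adjusted over the 18289 genes), which 4.87% of all tested genes passed. Some genes were named because they passed this test, and most because they passed in ceh1/eds16 against ceh1, which is part of it. The count of 64 therefore follows in part from the naming rule. The values below are the difference between the backgrounds on the log2 scale, the effect in ceh1 minus the effect in Col-0.

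It was positive for PDF1.2C 4.96, PDF1.2A 5.15, PDF1.3 5.25, AACT1 (AT5G61160) 6.38, PDF1.2B 4.53, JMJD5 4.0, DIN11 3.31, COR27 3.12 and RVE2 2.22. Positive values were also found for FMO1 3.64, BT2 2.91, MPL1 2.36, BOA 2.66, BAM6 1.61, COL9 2.1, ERF4 2.13, PLA2A 2.06 and IGMT2 2.04. Further positive differences were those of UGT73B5 1.65, AIG1 1.60, PR2 1.82, PR5 1.87, PBS3 1.2, EDS5 1.60, ALD1 2.07, EDS1 0.63 and RLP23 1.59. In addition it was above 0 for RBOHD 1.05, HPL1 1.47, AOS 1.08, CLH1 0.79, ACS6 1.5, CYP71A12 2.06, IGMT1 1.35, CYP81F2 1.72 and ELF4 1.61. The remaining positive values belonged to COR15A 1.46, RD29A 1.31, ZAT6 1.56, OM66 0.96, SEN1 (AT4G35770) 1.46 and CA1 1.60.

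It was negative for PR1 -3.66, WRKY38 -4.41, ARD3 -3.86, PCR1 -1.68, NIMIN1 -3.14, scpl16 -1.94, XTH10 -3.01, LHT7 -2.48 and PCC1 -2.07. Negative values were also found for ANK -1.32, MRU1 -1.59, MES9 -1.83, WRKY54 -0.82, UTR1 -0.61, SDF2 -0.64, LHCB2.3 -1.05, LHCB2.1 -0.73 and GUN4 -0.83. The remaining negative values belonged to PRR9 -1.55, FLS1 -1.22, SPX1 -1.10 and XCP1 -1.07.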

How the results depend on the processing

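The number of genes that passed in ceh1/eds16 against ceh1 was 1860, and 1024 to 3247 when single libraries were left out (614 to 1706 higher, 410 to 1541 lower). The number lower was 1185 with library totals as the scale, where 38.4% of the calls were higher against 58.3%. The total was 1329 to 2692 under the other alternatives, with 2285 by edgeR and 2404 by DESeq2. For eds16 against Col-0, 841 became 1513 with only its 6 libraries and 237 to 1781 with libraries left out. For the difference between the backgrounds, 891 became 593 without a filter, 1375 with the gene length trend removed and 348 to 3013 with libraries left out.

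With a replicate block the 3 counts were 1505, 538 and 566. The numbers were not treated as pairs in the main fit, and not every sample correlated best with its own number.

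Of the 123 named genes that passed, 89 still passed in the same direction in every alternative that kept them, and none reversed. Most were named because they passed, and where the groups do not overlap, leaving out a library cannot reverse the sign. Of all 1860 calls 54.84% were kept without replicate 1 of ceh1 and 59.73% without its replicate 2. The filter at a mean of 50 removed some of the named genes. PR5, not called, ran from -0.2487 to 0.0968 in the leave-outs. ADR1-L1, not called, was -0.0751 with library totals, -0.0926 with the length trend removed, and -0.0653 to 0.1215 in the leave-outs. GL2 was -0.056 with library totals, -0.0354 with the length trend removed and -0.0205 to 0.1027 in the leave-outs. FUL was -0.0803 with library totals, -0.0563 by edgeR, -0.0479 by DESeq2, and -0.1203 to 0.2387 in the leave-outs. PYK10 was -0.0925 to 0.109 in the leave-outs. The cause of these differences was not tested.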
